A study of Homo sapiens with 9 samples.

Results

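A set of 9 genes of the complement system, CFP, C3, C1R, C1S, CFB, SERPING1, CD46, CD55 and CD59, was followed on 9 Affymetrix 3′ expression arrays of MDA-MB231 cells, a human triple-negative breast cancer line. They were chosen by gene symbol, with the values of these same arrays already known, so their levels are a description, and the calls that the fit across all probe sets made on them are no independent evidence. The 9 genes had 16 probe sets of 22215 tested and stand among 11963 genes named by a single symbol. The arrays fall into 3 groups of 3 biological replicates: cells with hairpin shco2 against Coco, cells with hairpin shco4 against Coco, and cells with a control hairpin, scramble. All 3 lines carried a lentiviral pLKO-type vector in stable form and were grown in DMEM with fetal bovine serum, and whether each line is a pool or 1 clone is not stated in the labels. Coco, the product of DAND5, is a secreted antagonist of BMP, Nodal and activin ligands. No probe set carried its symbol, so the knockdown was not analysed here.

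Complement is a cascade of proteases and cofactors that ends in cleavage of C3 and in a pore, the membrane attack complex. The classical pathway starts with the proteases C1R and C1S, and the alternative pathway runs on C3 itself, on the protease factor B (CFB) and on properdin (CFP), which stabilises the convertase that cleaves C3. Nucleated cells, tumour cells among them, hold the cascade back at their own surface with CD46, a cofactor for the cleavage of C3b and C4b, CD55, which speeds the decay of C3 convertases, and CD59, which blocks the last step of pore formation, while the plasma inhibitor SERPING1 inactivates C1R and C1S.

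Values are linear intensities that the authors had scaled to a common trimmed mean, with array medians of 122 to 130, and their precision is limited by the number of arrays, 3 in each group. Differences are on the log2 scale after values under 16 were set to 16, the floor. Of 7 genes fixed as markers of the line, 6 exceeded 64 on at least 3 arrays, and SPARC did not pass 64 on any. The summed intensity of the 7 was 31929 to 32389 in shco2, 46921 to 48865 in shco4 and 51153 to 53242 in scramble. CAV1, S100A4 and MSN fell 2.58-fold, 2.38-fold and 2.29-fold with shco2, AXL fell 4.33-fold with shco4 (limma adjusted p = 0.000192, 0.000351, 0.000563 and 0.000248), and VIM was at 9517 to 10179 in shco2, 12400 to 13135 in shco4 and 12011 to 12837 in scramble. CD44 fell 1.43-fold with shco2 and rose 1.29-fold with shco4 (limma adjusted p = 0.00273 and 0.0110). With shco4, CAV1, MSN and VIM overlapped scramble, and S100A4 differed by 0.20 (limma adjusted p = 0.142). Of 7 luminal markers, ESR1, PGR and FOXA1 did not pass 64 on any array, whereas KRT19, GATA3, EPCAM and ERBB3 did, with KRT19 at 2107 to 5848 and PGR at 0.381 to 9.29 over the 9 arrays. Their sum was 3237 to 3309 in shco2, 5238 to 5696 in shco4 and 5542 to 7152 in scramble. Single luminal markers differed by line. KRT19 fell 2.29-fold with shco2 (limma adjusted p = 0.00115) and overlapped scramble with shco4. EPCAM and ERBB3 fell 2.46-fold and 1.81-fold with shco4 (limma adjusted p = 0.000266 and 0.000894) and overlapped scramble with shco2. ESR1, dim on all arrays, rose 1.70-fold with shco4 (limma adjusted p = 0.0439), and GATA3 was called with neither hairpin. In bulk RNA a lower level in fewer cells and a lower level in each cell cannot be told apart.

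On the intensity of each array, the complement genes fell into distinct patterns. Every shco2 array lay below every scramble array at 10 of the 16 probe sets (16.4% of all probe sets tested) and above at 0 of 16 (19.4%). Every shco4 array lay above every scramble array at 6 of 16 (16.7%) and below at 2 (15.9%). The shco4 arrays lay above all shco2 arrays at 8 of 16 (20.1%) and below at 2 (20.8%). The 5 probe sets of CFP and CD59 had shco2 wholly below and shco4 wholly above scramble (3.84% of all probe sets), and 0 had the reverse (4.65%). The pair for CD55 lay below scramble on all arrays of both hairpin lines (5.01%), and 0 lay above with both (5.37%). The genes were chosen with these comparisons known, so nothing is read from the counts. The scramble arrays stand in both comparisons with a hairpin line.

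**Figure D1:**
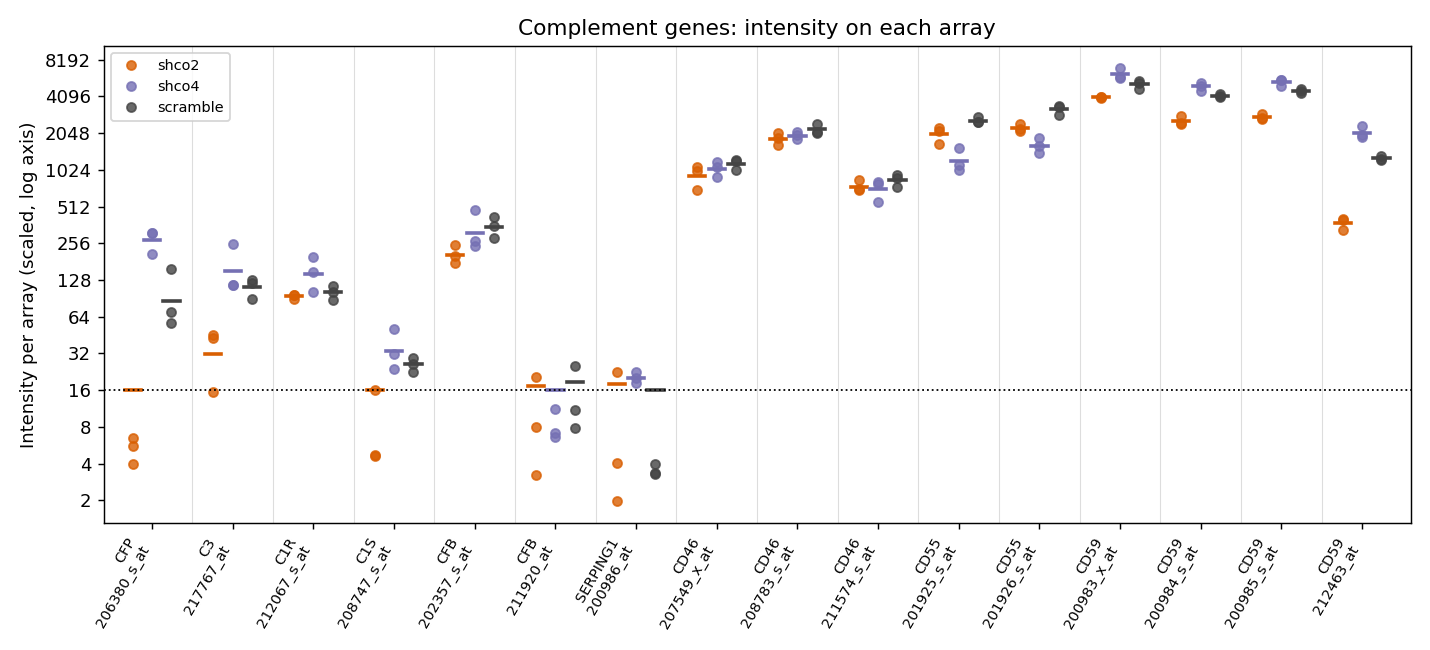
Intensity on each array (log axis) at the 16 probe sets of the 9 complement genes, with points for single arrays, short bars for the mean of log2 values after the floor, and a dotted line at the floor of 16. CFP and CD59 lay lowest in shco2 and highest in shco4, both CD55 probe sets lay lowest in shco4, and the 3 groups overlapped at the CD46 probe sets.

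CFP, which encodes properdin, had intensities of 3.97, 6.52 and 5.62 in shco2, of 309, 209 and 308 in shco4, and of 57.3, 157 and 70.3 in scramble. The 3 groups did not overlap: all 3 shco2 arrays were at the floor, and every shco4 array lay above the highest scramble array. The level in shco2 was thus at least 5.37-fold below scramble and at least 16.9-fold below shco4. In shco4 it was 3.15-fold above scramble (log2 difference 1.66 ± 0.38, SE, n = 3 per group). The SE draws on the spread of all 3 groups. After the floor the SD was 0 in shco2, 0.33 in shco4 and 0.77 in scramble, so the floored arrays make the SE smaller. Scramble replicate 2 was the highest of its group, and without it the difference of shco4 from scramble was 2.09. With a floor of 64 the differences from scramble were -0.48 for shco2, with CFP still at the floor there, and 1.60 for shco4.

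Properdin is made mainly by myeloid cells and T cells, so markers of leukocytes were read beside it. Of 7 such markers measured, PTPRC, SPI1, LYZ, TYROBP and CD3E did not pass 64 on any array, with PTPRC at 5.03 to 30.0 and LYZ at 0.72 to 10.3. CD14 was at 38.5 to 71.3 in shco2, 109 to 250 in shco4 and 47.4 to 73.0 in scramble, and CSF1R was highest in scramble (96.7 to 131). The summed intensity of the 7 markers was 166 to 206 in shco2, 240 to 390 in shco4 and 191 to 295 in scramble. Fibroblast markers were read as well, and 4 of 8 exceeded 64 on at least 3 arrays, with PDGFRA at 4.16 to 23.8. LUM was at 3.86 to 13.8 in shco2, 128 to 296 in shco4 and 18.2 to 25.0 in scramble, the order that CFP and CD59 had, and it rose 10.1-fold with shco4 (limma adjusted p = 0.00120). COL1A2 was at 59.6 to 76.1 in shco2, 170 to 328 in shco4 and 306 to 384 in scramble, and it fell 5.15-fold with shco2 (limma adjusted p = 0.00147). COL1A1 overlapped between all groups, at 177 to 209 in shco2, 195 to 216 in shco4 and 146 to 197 in scramble. So did PDGFRB, at 27.2 to 61.7 in shco2, 29.6 to 65 in shco4 and 42.2 to 71.7 in scramble. The sum of the 8 was 362 to 433 in shco2, 660 to 934 in shco4 and 672 to 698 in scramble. The part of these markers, of CD14 and of the markers of the line in the complement results was not tested.

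C3, the central component on which the pathways converge, had intensities of 45.1, 15.5 and 42.8 in shco2, of 252, 117 and 116 in shco4, and of 127, 89.8 and 120 in scramble. All shco2 arrays lay below all others, whereas shco4 and scramble overlapped. The mean in shco2 was 3.55-fold below scramble (log2 difference -1.83 ± 0.49, SE, n = 3 per group), and that in shco4 differed from scramble by 0.44 (95% interval -0.75 to 1.62). A single array had much weight in each hairpin line: without shco2 replicate 2, which was just under the floor, the first difference was -1.34, and without shco4 replicate 1 the second was 0.07. CFP and C3 thus shared their low level in shco2, but only CFP had all shco4 arrays above scramble.

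C1R and C1S, the proteases of the C1 complex, are neighbours on chromosome 12. C1R had intensities of 89.7, 96.0 and 95.6 in shco2, of 196, 149 and 102 in shco4, and of 114, 88.3 and 102 in scramble, so that both hairpin lines overlapped scramble. Its difference from scramble was -0.11 with shco2 (95% interval -0.66 to 0.45) and 0.51 with shco4 (95% interval -0.04 to 1.07). C1S was dim throughout, at 16, 4.70 and 4.58 in shco2, 50.4, 23.9 and 31.6 in shco4, and 22.6, 29.2 and 26.4 in scramble. The shco2 arrays of C1S lay below all others, but the gene did not pass 64 on any array, and with a floor of 64 its differences were 0.

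CFB, the protease of the alternative C3 convertase, was measured by 2 probe sets. The brighter, 202357_s_at, had intensities of 200, 246 and 177 in shco2, of 476, 265 and 241 in shco4, and of 352, 285 and 422 in scramble. Every shco2 array lay below every scramble array (log2 difference -0.76 ± 0.29, SE, n = 3 per group), and the shco4 arrays overlapped both other groups, with shco4 replicate 1 the highest of all 9 arrays. The other, 211920_at, was at 25.0 or less on every array, and its groups overlapped. SERPING1, the C1 inhibitor, stood near the floor as well, at 1.97, 4.03 and 22.7 in shco2, 22.4, 20.3 and 18.2 in shco4, and 3.29, 3.37 and 3.93 in scramble.

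The start region of CFB is shown because, among the 6 genes with an entry, it alone held matches to 3 of the motifs searched. Promoters are from RefSeq (GRCh38.p14), 250 bases before to 50 bases after the gene's start, 5′ to 3′ on the gene's strand, taken at the outermost start of the gene where there were several entries, and capitals mark motif matches on either strand. The motifs were the core of the interferon-stimulated response element (GAAA, any 2 bases, GAAA), TTCNNNGAA, the STAT site called GAS, the NF-kB consensus, GGGCGG, the GC box bound by SP1, and GGCGCC, a GC-rich element bound by BMP Smads. Of 35116 promoters they were found in 3.57%, 7.66%, 11.3%, 45.0% and 19.2%. CFB held the first 140, the GAS match 92 and the NF-kB match 112 bases before its start. CFP held none of the 5, and is shown for that contrast:
CFB (chr6:31945845-31946144, plus strand): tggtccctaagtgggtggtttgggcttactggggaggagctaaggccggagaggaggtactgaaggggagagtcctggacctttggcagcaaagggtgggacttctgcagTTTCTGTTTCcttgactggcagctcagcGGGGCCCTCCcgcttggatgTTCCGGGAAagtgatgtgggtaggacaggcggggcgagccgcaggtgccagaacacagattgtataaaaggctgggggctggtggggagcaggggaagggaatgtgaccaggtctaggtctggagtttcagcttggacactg
CFP (chrX:47630256-47630555, minus strand): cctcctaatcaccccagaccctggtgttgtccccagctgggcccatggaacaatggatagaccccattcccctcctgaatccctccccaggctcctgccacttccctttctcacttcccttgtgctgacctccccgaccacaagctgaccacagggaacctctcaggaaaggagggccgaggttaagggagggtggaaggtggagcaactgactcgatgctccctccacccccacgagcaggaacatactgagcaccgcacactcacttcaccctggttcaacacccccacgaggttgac

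CD59, the inhibitor of the membrane attack complex, had 4 probe sets, and at each of them all shco2 arrays lay below and all shco4 arrays above all scramble arrays. At 212463_at intensities were 327, 404 and 394 in shco2, 2340, 1914 and 1975 in shco4, and 1234, 1266 and 1325 in scramble. The mean there was 3.41-fold below scramble in shco2 (log2 difference -1.77 ± 0.11) and 1.62-fold above it in shco4 (0.70 ± 0.11, SE, n = 3 per group), and shco4 stood 5.54-fold above shco2.

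The other CD59 probe sets gave the same order with smaller differences. At 200985_s_at intensities were 2652, 2917 and 2708 in shco2, 5555, 5628 and 4938 in shco4, and 4519, 4719 and 4390 in scramble, with differences from scramble of -0.72 and 0.24. At 200984_s_at they were 2423, 2802 and 2462 in shco2, 5292, 4968 and 4562 in shco4, and 4079, 4280 and 4087 in scramble, with differences of -0.70 and 0.25. At 200983_x_at they were 4084, 3975 and 4053 in shco2, 7050, 5939 and 5750 in shco4, and 5244, 5503 and 4722 in scramble, with differences of -0.35 and 0.27. The suffix _x_at marks probes that may also bind other transcripts. The size of the CD59 difference in shco2 thus ran between 1.27-fold and 3.41-fold by probe set, and its direction was the same at all 4.

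CD55, the decay-accelerating factor, was lower in both hairpin lines and lowest in shco4. At 201926_s_at intensities were 2123, 2425 and 2203 in shco2, 1600, 1866 and 1403 in shco4, and 3426, 3356 and 2887 in scramble. At 201925_s_at they were 1671, 2265 and 2125 in shco2, 1021, 1542 and 1119 in shco4, and 2503, 2532 and 2766 in scramble. At neither probe set did any 2 groups overlap. The differences from scramble at the first were -0.52 ± 0.12 with shco2 and -1.0 ± 0.12 with shco4, and at the second -0.37 ± 0.18 and -1.10 ± 0.18 (SE, n = 3 per group), so that the level in shco4 was 1.99-fold and 2.15-fold below scramble. CD55 and CD59, both held in the membrane by a lipid anchor, thus stood on opposite sides of scramble in shco4 and on the same side in shco2.

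CD46, the third membrane regulator, had 3 probe sets, and at each of them both hairpin lines overlapped scramble. At 208783_s_at intensities were 1649, 2062 and 1867 in shco2, 1961, 1838 and 2071 in shco4, and 2060, 2102 and 2422 in scramble, with differences of -0.24 (95% interval -0.48 to 0.00) and -0.16 (-0.41 to 0.08). At 207549_x_at the range was 695 to 1078 in shco2, 897 to 1186 in shco4 and 1019 to 1222 in scramble. At 211574_s_at it was 696 to 838 in shco2, 562 to 818 in shco4 and 735 to 930 in scramble. All 6 differences from scramble were negative, between -0.13 and -0.33.

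**Figure D2:**
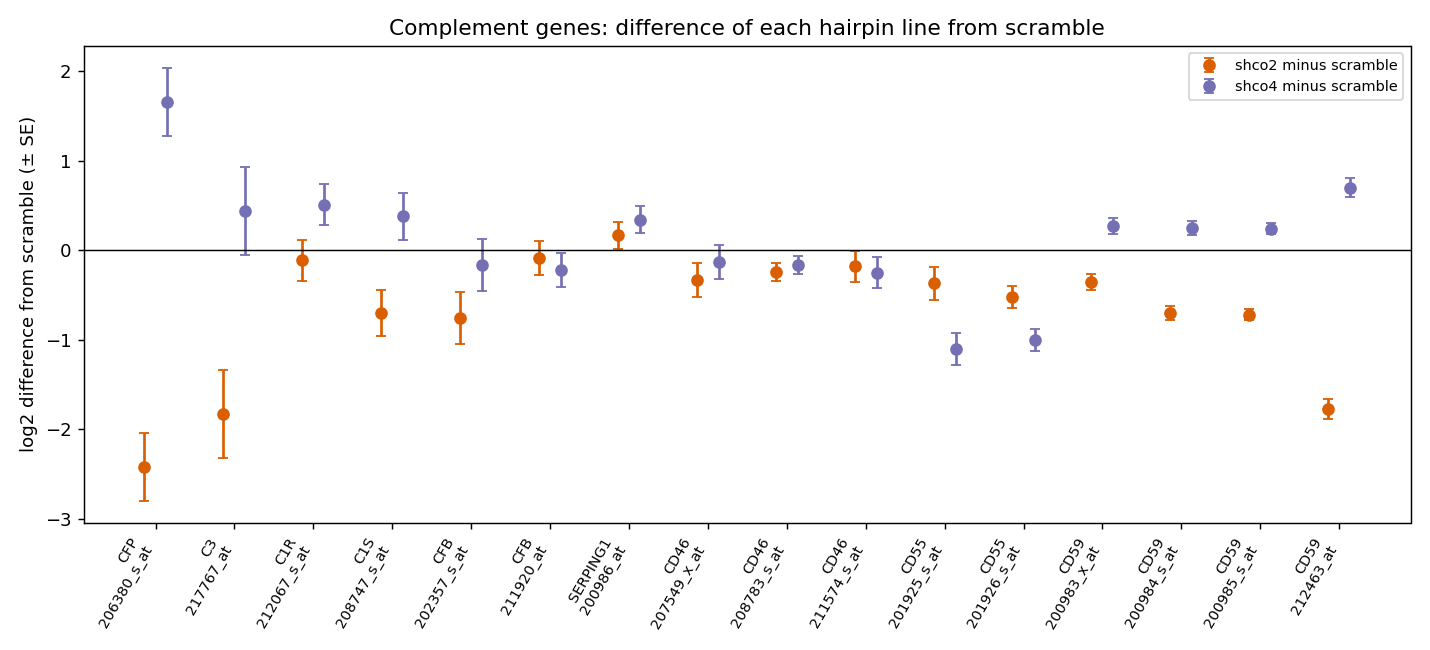
Log2 difference of shco2 and of shco4 from scramble at each probe set of the 9 complement genes, with bars for the SE of the fit across all probe sets (3 arrays per group). At CFP and CD59 the hairpin lines stand on opposite sides of 0, at CD55 both stand below it with shco4 lower, and at CD46 all differences lie between -0.13 and -0.33.

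The start regions of CD59 and CD55 are shown because these regulators differed in opposite directions in shco4. That of CD59 held a GAS match 128 bases before the start and 2 GC boxes, 4 bases before it and from base 10 after it. That of CD55 held 1 GC box, 46 bases before the start, and that of CD46 held 3. None of the 3 held the response element, NF-kB or BMP Smad motif, and C1R held none of the 5:
CD59 (chr11:33736430-33736729, minus strand): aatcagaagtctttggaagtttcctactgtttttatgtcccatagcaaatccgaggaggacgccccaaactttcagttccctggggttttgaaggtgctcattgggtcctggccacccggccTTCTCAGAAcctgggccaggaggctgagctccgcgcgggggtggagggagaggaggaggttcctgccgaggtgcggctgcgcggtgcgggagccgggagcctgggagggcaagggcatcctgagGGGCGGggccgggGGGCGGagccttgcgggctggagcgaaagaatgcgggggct
CD55 (chr1:207321428-207321727, plus strand): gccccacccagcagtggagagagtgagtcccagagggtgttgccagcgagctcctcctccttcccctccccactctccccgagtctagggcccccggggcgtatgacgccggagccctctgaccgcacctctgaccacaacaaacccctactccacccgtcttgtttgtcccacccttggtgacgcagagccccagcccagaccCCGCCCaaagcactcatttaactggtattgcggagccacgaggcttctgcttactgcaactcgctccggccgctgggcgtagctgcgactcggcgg

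CD55 and CD46 lie in a cluster of complement regulators on chromosome 1, in the RefSeq order C4BPB, C4BPA, CD55, CR2, CR1, CR1L and CD46. C4BPB, a chain of the C4b-binding protein, was lower in both hairpin lines, as was CD55, while CD46 overlapped scramble. C4BPA, CR2 and CR1 did not pass 64 on any array at the probe set with the highest mean, and CR1L had no probe set named by it alone. On chromosome 12, C1R stands between C1S and C1RL.

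**Figure D3:**
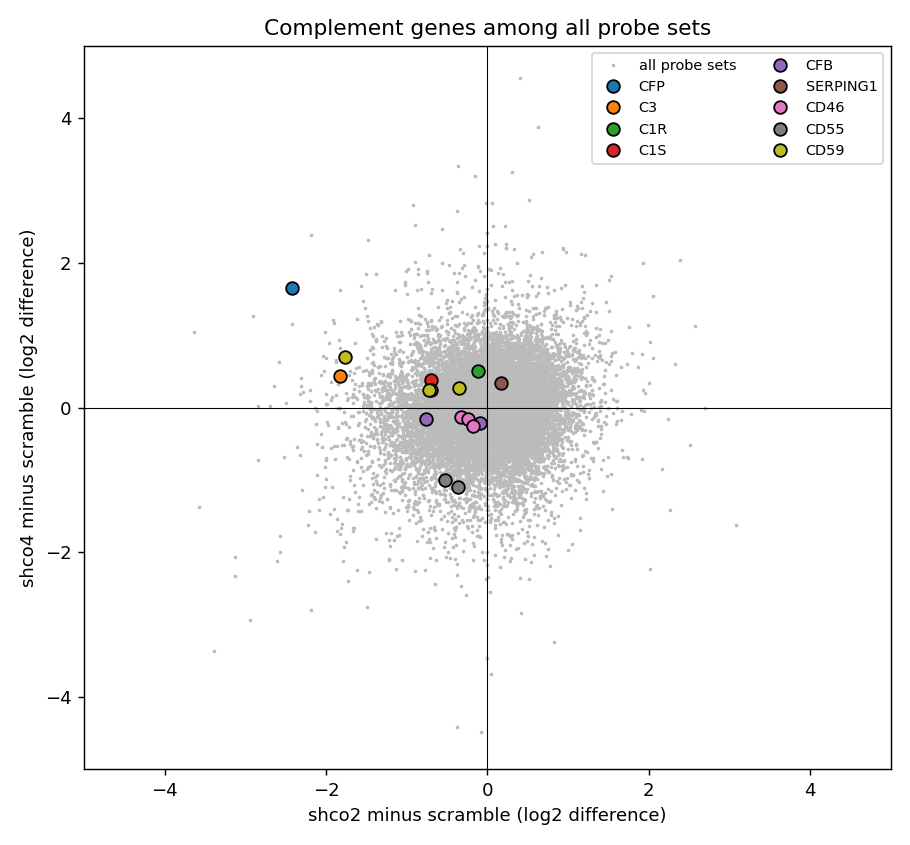
Log2 difference of shco2 from scramble (x axis) against that of shco4 from scramble (y axis) for all probe sets tested (grey) and the 16 probe sets of the complement genes (coloured by gene), and the scramble arrays enter both axes. CFP, C3 and 1 CD59 probe set lie far to the left, CFP and CD59 above the horizontal line, and CD55 below it.

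In the fit across all probe sets, limma's test with Benjamini-Hochberg adjustment called 4589 probe sets in shco2 against scramble at an adjusted p under 0.05 (20.7% of those tested, with 10.7% higher and 9.95% lower). Of the 16 complement probe sets it called 7 lower and 0 higher, those of CFP, C3 and CD59 and 1 of CD55. In shco4 against scramble it called 18.8% of all probe sets (9.05% higher, 9.75% lower), and of the 16 it called 3 higher, CFP and 2 of CD59, and both of CD55 lower. In shco4 against shco2 it called 31.0% of all (14.9% higher, 16.1% lower), and of the 16 it called 7 higher, CFP, C3, C1S and the 4 of CD59, and both of CD55 lower. As the genes were chosen with these comparisons known, the counts are a description. The CFP call in shco4 was lost under the replicate block, in which the fit takes the replicate number as a term. Single arrays also moved the counts: the 7 lower with shco2 became 4 without shco2 replicate 1 or 3 or scramble replicate 1 or 2. In each of those fits the calls lower over all probe sets fell too, from 2210 to as few as 1652. The 3 higher with shco4 became 1 without shco4 replicate 1 or scramble replicate 1 or 3. The 2 lower in shco4 than in shco2 became 0 without replicate 2 or 3 of shco2 or replicate 1 or 3 of shco4. Over all probe sets, every fit without 1 array called fewer higher with shco4 (1246 to 1897, against 2011). Each also called fewer lower in shco4 than in shco2 (2954 to 3483, against 3582). The smaller counts are therefore not read as particular to the complement genes.

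A list of 54 further complement genes holds none of the 9. Of these, 44 had a probe set named by them alone, read at the probe set with the highest mean, and 33 of the 44 did not exceed 64 on 3 arrays. In shco2 against scramble, 6 of 44 fell and 1 rose (15.9%, against 20.7% of all probe sets), with a median of -0.07 against 0.00 for all probe sets. In shco4 against scramble, 4 fell and 2 rose (13.6%, against 18.8%), with a median of 0.00 against 0.00. In shco4 against shco2, 7 were higher and 3 lower (22.7%, against 31.0%), with a median of 0.02 against 0.00. Of 7 terminal pathway genes, C5 to C9, 0 were called in any of the 3 comparisons. Of these only C5 exceeded 64 on at least 3 arrays, and the others did not pass 64 on any, so they could show little.

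Among the soluble regulators, C4BPB fell with both hairpins. Its intensities were 506, 538 and 453 in shco2, 578, 622 and 604 in shco4, and 1703, 1571 and 1307 in scramble. All 6 arrays of the hairpin lines lay below all scramble arrays, 3.05-fold in shco2 (log2 difference -1.61 ± 0.11, limma adjusted p = 0.000404) and 2.53-fold in shco4 (-1.34 ± 0.11, limma adjusted p = 0.000879; SE, n = 3 per group). Both calls held with each array left out in turn (limma adjusted p up to 0.00274 and 0.00542).

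CLU, clusterin, which binds terminal components in the fluid phase, had the order that CD59 had. Its intensities were 576, 704 and 592 in shco2, 1602, 1556 and 1567 in shco4, and 940, 765 and 780 in scramble. CLU rose 1.91-fold with shco4 (limma adjusted p = 0.00228) and was 2.53-fold higher in shco4 than in shco2 (limma adjusted p = 0.000252). It fell 1.33-fold with shco2 (limma adjusted p = 0.0360), a call lost in 8 of the 9 fits that left out 1 array (limma adjusted p up to 0.109) and under the replicate block (0.0727). Its other probe sets, 208792_s_at and 222043_at, differed by -0.43 and -0.63 with shco2 and by 0.83 and 0.80 with shco4, and of these 4 differences that of 208792_s_at with shco4 passed (limma adjusted p = 0.0120).

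THBD, thrombomodulin, a membrane protein that promotes inactivation of C3b as well as of clotting factors, was at 371, 509 and 426 in shco2, 803, 851 and 853 in shco4, and 558, 695 and 891 in scramble. It was 1.94-fold higher in shco4 than in shco2 (limma adjusted p = 0.00889). It fell 1.62-fold with shco2 (limma adjusted p = 0.0416), a call lost in 7 of the 9 fits that left out 1 array (up to 0.120), and with shco4 it overlapped scramble. Its other probe set, 203888_at, was at 229, 319 and 265 in shco2, 585, 512 and 490 in shco4, and 324, 417 and 463 in scramble. There the 3 groups did not overlap, and neither difference from scramble passed (-0.57 with shco2 and 0.41 with shco4, limma adjusted p = 0.0656 and 0.166), while shco4 was higher than shco2 (0.97, limma adjusted p = 0.00598). C1QBP, a mostly mitochondrial protein that can bind C1q, is named because it was the only gene of the list that rose with shco2 (0.29, limma adjusted p = 0.0337), a choice made after its values were seen. That call was lost in 5 of the 9 such fits (up to 0.103) and under the replicate block (0.0774). C1QBP was lower in shco4 than in shco2 (-0.48, limma adjusted p = 0.00321).

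Of the serine proteases, CFD, factor D, which cleaves factor B, was at 124, 137 and 137 in shco2, 95.1, 73.5 and 43.0 in shco4, and 219, 143 and 189 in scramble. It fell 2.70-fold with shco4 (log2 difference -1.44 ± 0.30, SE, n = 3 per group, limma adjusted p = 0.0203), a call lost without scramble replicate 1 or 3 (up to 0.0663). Its difference between shco4 and shco2 (-0.99, limma adjusted p = 0.0491) lost its call in 8 of the 9 such fits (up to 0.124) and under the replicate block (0.0716). C2, the classical counterpart of factor B and its near neighbour on chromosome 6, was at 66.9, 68.1 and 81.4 in shco2, 117, 103 and 87.0 in shco4, and 116, 105 and 115 in scramble. It fell 1.56-fold with shco2 (limma adjusted p = 0.0143), a call lost in 4 of the 9 such fits, without shco2 replicate 1 or 2 or scramble replicate 1 or 3 (up to 0.0513). It was 1.41-fold higher in shco4 than in shco2 (limma adjusted p = 0.0235), which was also lost in 4 (up to 0.0770) and under the replicate block (0.0578). C2 and CFB both had all shco2 arrays below all scramble arrays.

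Among receptors, ADGRE5, also called CD97, the adhesion receptor that binds CD55, was at 1147, 1088 and 1181 in shco2, 1115, 1256 and 1595 in shco4, and 2125, 1900 and 1774 in scramble. It fell 1.69-fold with shco2 (log2 difference -0.76 ± 0.14, SE, n = 3 per group, limma adjusted p = 0.0100), a call that held with each array left out in turn (up to 0.0377). It fell 1.47-fold with shco4 (limma adjusted p = 0.0331), a call lost in 8 of the 9 such fits (up to 0.0984) and under the replicate block (0.0661). ITGB2, the beta chain of complement receptors 3 and 4, was at 64.4, 85.6 and 72.5 in shco2, 120, 145 and 156 in shco4, and 73.8, 74.6 and 58.5 in scramble. It rose 2.04-fold with shco4 (limma adjusted p = 0.00644) and was 1.89-fold higher in shco4 than in shco2 (limma adjusted p = 0.00505). The partner chains ITGAM and ITGAX did not pass 64 on any array.

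C3AR1 and C5AR1, receptors for the fragments C3a and C5a, did not exceed 64 on any array. C3AR1 fell with shco2 by 0.84 and with shco4 by 1.12 on the log2 scale (limma adjusted p = 0.0341 and 0.0141), but with a floor of 64 both differences were 0, and the shco2 call was lost in 6 of the 9 such fits (up to 0.0967) and under the replicate block (0.0715). In shco4 against shco2, C5AR1 (1.01, with all shco2 arrays at the floor), CFHR2 (0.97) and CPN1 (0.67) were higher and SUSD4 (-1.31) was lower (limma adjusted p = 0.0467, 0.0362, 0.0444 and 0.0258). Of these 4, 3 did not exceed 64 on any array, SUSD4 did on 1, and none of the 4 calls stood with a floor of 64. The replicate block also ended those of C5AR1 (0.0539) and CPN1 (0.103), and leaving out 1 array ended each of the 4 in 4 to 7 of the 9 fits.

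**Figure D4:**
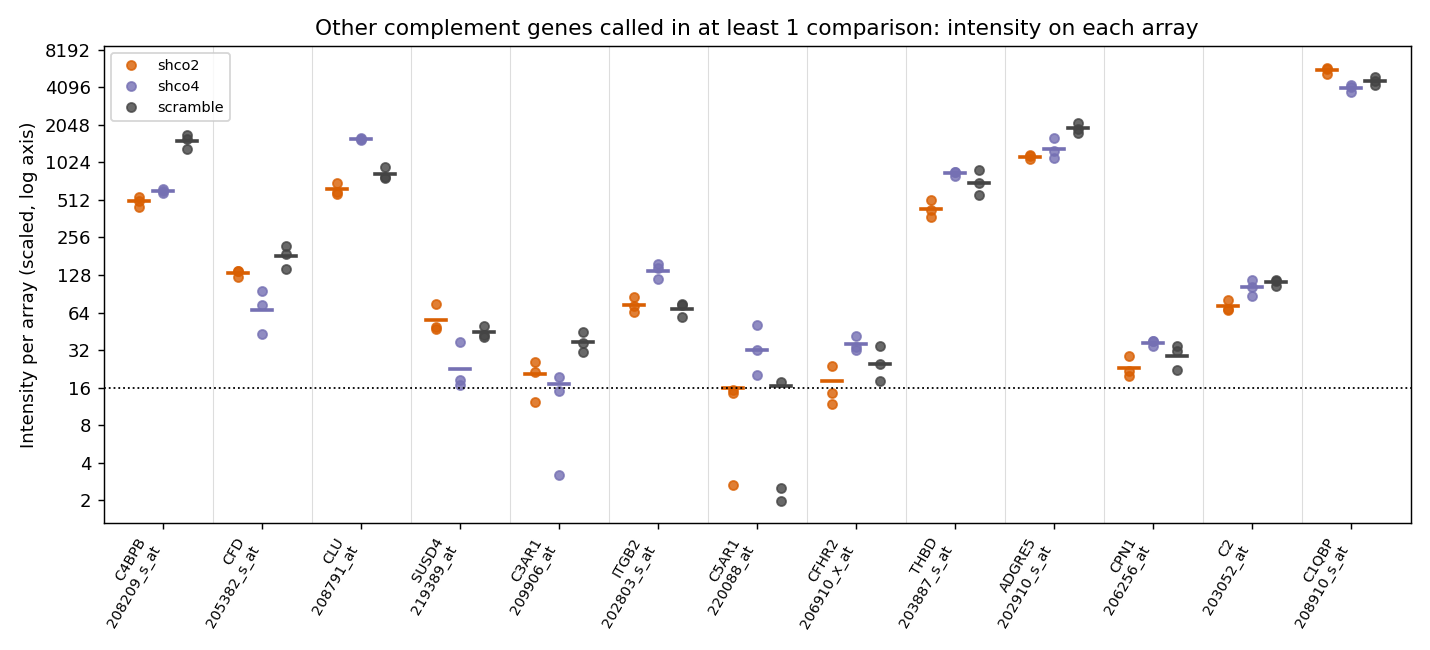
Intensity on each array (log axis) of the 13 further complement genes called in at least 1 of the 3 comparisons, with points for single arrays, short bars for the mean of log2 values after the floor, and a dotted line at the floor of 16. C4BPB and ADGRE5 lay below scramble in both hairpin lines, CLU lay lowest in shco2 and highest in shco4, and ITGB2 lay highest in shco4.

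The genes most like CFP and C3 over the 9 arrays were sought among 15672 probe sets by Pearson r of log2 intensity, as a description, since the arrays form 3 groups and r mostly reflects their order. For CFP they were DCAF8 (r = 0.987), KANSL1L (0.986), PLXNA1 (0.985) and SSTR2 (0.983). For C3 they were RARG (r = 0.983), UBOX5 (0.981), RALGDS (0.979) and SGSM2 (0.972). No gene of the complement lists was among these 8.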

How the data were processed

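Per the labels' protocols, each RNA sample was turned into biotin-labelled cRNA and read on its own Affymetrix 3′ array. The deposited table holds 22277 probe sets as linear intensity values that the authors had scaled to an equal trimmed mean (499.9 on every array without the lowest and highest 2%, as tested on the values). The software is not given in the sources used here. GEO's platform annotation named the probe sets: 19064 had 1 symbol, 1043 several and 2108 none. The 62 control probe sets were left out, intensities below 16 were raised to 16 before taking log2. A model with a mean for each group, over all 9 arrays, was fitted by lmFit and eBayes (limma 3.58.1, R 4.3.3), two-sided, with Benjamini-Hochberg adjustment over 22215 probe sets and calls at an adjusted p under 0.05. Unless another setting is named, SE, intervals and adjusted p are from this fit, which leaves out the pairing by replicate number given below. The replicate block, which uses it, was an alternative. In shco2 against scramble the block called 2805 probe sets higher and 2540 lower, against 2379 and 2210 in the main fit. The fit was also run on simulated data without pairing between arrays, with changes placed only at probe sets well above the floor. That run therefore says nothing about paired arrays or about genes near the floor. For each gene outside the 9, the probe set with the highest mean was read.

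The 9 genes, the lists and the tests were chosen with earlier results of these data known. All probe sets of the 9 genes are named; of the list of further complement genes, up to 12 called in any comparison by largest difference, plus C1QBP; for CFP and C3, the 4 genes with the highest r among probe sets with 1 symbol above the floor on at least 3 arrays; of each marker list, the genes with the lowest and the highest mean. Other marker genes were named after their values were seen. P-values measure the spread between replicates that the labels call biological. Same-numbered arrays deviated from their group means together, which was taken as pairing. For replicates 1, 2 and 3 the correlations were 0.235, 0.133 and 0.233 between shco4 and scramble. They were 0.29, 0.0571 and 0.255 between shco2 and scramble, and 0.178, 0.0576 and 0.213 between shco4 and shco2. For each array and each other group, the array with the highest correlation had the same replicate number (18 of 18 cases). The alternatives tried were other floors, quantile normalization, median centring, a filter on dim probe sets, the replicate block, an intensity trend with a robust prior, fits of the 2 groups compared, and leaving out each array. Promoter sequences are from RefSeq (GRCh38.p14), which had entries for 6 of the 9 genes (not C3, C1S or SERPING1).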

Additional observations from a re-analysis of the deposited data

Results flagged for a closer look

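At 5 probe sets of the complement genes, of CFP and CD59 only, all shco2 arrays lay below and all shco4 arrays above scramble. This held at 3.84% of all probe sets tested, and the reverse at 4.65%. The log2 difference of shco4 from shco2 was 4.08 at CFP, with all shco2 arrays at the floor, and 0.62, 0.95, 0.96 and 2.47 at the CD59 probe sets 200983_x_at, 200984_s_at, 200985_s_at and 212463_at. The fit across all probe sets called all 5 higher in shco4 than in shco2, as it did 14.9% of all probe sets tested. The genes were chosen with these values known, so the calls are no independent evidence. CLU stood apart in the same way at 208791_at, with a difference of 1.34 between shco4 and shco2 (limma adjusted p = 0.000252). Its call with shco2 against scramble was lost in 8 of the 9 fits that left out 1 array. At its probe set 222043_at the shco2 arrays overlapped scramble.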

How the results depend on the processing

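Of 807 differences of the 16 complement probe sets recomputed under alternatives, 790 moved by no more than the spread between replicates, and the other 17 moved by more, 16 of them with a changed floor. Only the floors, quantile normalization and median centring could give such a move. Leaving out 1 array of 3 cannot shift a difference by more than that spread. The replicate block, the intensity trend, the filter and the fits of the 2 groups leave a difference unchanged. The count of 790 is therefore no measure of stability. With floors of 64 and 1 the shco2 difference of CFP was -0.48 and -4.03. No called difference of these or of the further complement genes changed direction. The counts of the list of 54 genes were small and depended on settings. The 1 rise with shco2 became 0 with a floor of 1, median centring, the replicate block or the 2 groups alone. In the fit of the 2 groups alone the falls were 3 with shco2 and 2 with shco4, and the count lower in shco4 than in shco2 was 1. The count higher in shco4 than in shco2 was 4 with a floor of 64 and 4 after the filter on dim probe sets. With single arrays left out, list counts ran from 0 to 2 higher and 2 to 4 lower with shco2, 2 to 4 higher and 2 to 4 lower with shco4, and 3 to 9 higher and 1 to 3 lower in shco4 against shco2. Over all probe sets they ran from 1606 to 2382 higher and 1652 to 2220 lower with shco2, 1246 to 1897 higher and 1514 to 2041 lower with shco4, and 2721 to 3208 higher and 2954 to 3483 lower in shco4 against shco2. The cause was not tested. Of the calls among the 16 probe sets, those lower with shco2 were 4 to 9, those higher with shco4 1 to 4, and those lower in shco4 than in shco2 0 to 2 with an array left out. With the replicate block the calls among them were 7 lower with shco2, 2 higher and 2 lower with shco4. In the fit of the 2 groups alone they were 7 lower with shco2, and 1 higher and 2 lower with shco4. In shco4 against shco2 that fit called 5 of the 16 higher and 0 lower, so the 2 calls of CD55 were lost. Over all probe sets that fit called fewer with shco2 than the main fit, both higher and lower. Its calls over all probe sets in shco4 against shco2 are not set beside these counts. The loss is therefore not read as particular to CD55. With shco4 the replicate block called more of all probe sets than the main fit, in both directions. Probe sets near the floor, with no detection call used here, limit what C1S, SERPING1 and C3AR1 can show.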
